A study of Mus musculus with 8 samples.

Results

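The fetal and stress program of cardiomyocytes is followed here through 8 genes, chosen by symbol out of the 32285 genes of the count tables: Myh6, Myh7, Myh7b, Mhrt, Acta1, Ankrd1, Xirp2 and Tnni1. Nuclei of whole hearts of male mice, 9 weeks old, were sequenced in 1 library per mouse. The WT group held mice 4686, 4909, 5355 and 5356 and the Taz-KO group held mice 4685, 4910, 5300 and 5301. The Taz-KO mice are knockouts of Taz (Tafazzin), the X-linked enzyme that remodels the mitochondrial lipid cardiolipin and is defective in Barth syndrome. The knockout allele, the strain and the relation of the WT mice to the knockouts were not given in the sources used here. Levels (CPM) are UMIs, single tagged transcripts, divided by all non-mitochondrial UMIs of the population in that mouse and scaled to a common total, and are compared between mice for 1 gene, not between genes.

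The adult mouse ventricle uses Myh6, the fast alpha myosin heavy chain, while the fetal ventricle uses Myh7, the slow beta chain. Hearts under load or with failing metabolism are known to turn back toward the fetal set, in which Myh7, the skeletal alpha actin Acta1 and the natriuretic peptides rise. Ankrd1 (CARP) and Xirp2 are proteins of the sarcomere and the intercalated disc that respond to stretch, Myh7b is a slow myosin gene known as a host of a microRNA, and Tnni1 is the slow skeletal troponin I of the fetal heart. Mhrt is a noncoding RNA of the myosin locus with a known antagonism to the chromatin remodeller Brg1.

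On the GRCm38 build, Myh6 (chr14:54941921-54966927) and Myh7 (chr14:54970684-54994626) lie head to tail on the minus strand of chromosome 14, 3756 bases apart. Mhrt (chr14:54968678-54974349) is read from the plus strand, and 3666 of its bases lie over Myh7. The library kit keeps the strand, but the setting used for counting was not given in the sources used here. Myh6 and Myh7 are close paralogs, so a few reads may be shared between them. Myh7b (chr2:155611212-155634307) and Xirp2 (chr2:67446002-67526614) lie on chromosome 2, Tnni1 (chr1:135779434-135810989) on chromosome 1, Acta1 (chr8:123891769-123894751) on chromosome 8 and Ankrd1 (chr19:36111961-36120099) on chromosome 19. The 3 myosin genes each hold a microRNA outside their annotated exons. The mature forms below, from RefSeq on GRCm38.p6, are shown because the host genes are members, and capitals mark the seed, bases 2 to 8. The microRNAs themselves were not measured.

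miR-208a-3p, in Myh6, chr14:54949072-54949093, minus strand: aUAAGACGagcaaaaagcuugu

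miR-208b-3p, in Myh7, chr14:54975710-54975731, minus strand: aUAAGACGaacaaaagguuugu

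miR-499-5p, in Myh7b, chr2:155622893-155622913, plus strand: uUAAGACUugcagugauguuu

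The first 2 share their seed and differ in 3 of 22 bases over their whole length. The seed of miR-499-5p ends in another base.

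The promoters of these genes were read for the MCAT motif (CATTCC on either strand), the site known to be bound by TEAD factors in muscle genes, in the RefSeq windows from 250 bases before to 50 bases after a start site. The 8 members had 10 such windows. The motif was found in 5 of the 10, 1 each of Myh6, Myh7, Mhrt, Acta1 and Ankrd1, and in 14.7% of the 32851 windows of all genes. A CArG box, the site of the serum response factor, was found in 1 of the 10, of Acta1, and in 1.63% of all windows. A MEF2 site was found in 1 of the 10, of Xirp2, against 3.19% of all windows. E-boxes (CANNTG), in 10 of the 10, and GATA, in 8, were common among all windows, at 72.3% and 57.9%. The stretches that carry MCAT or the CArG box (in capitals) are given for the myosin locus and for the 2 genes with the largest fitted rise, on the strand of the gene and on GRCm38.p6. They are letters in a window, and no binding was measured. Apart from Xirp2 and the listed window of Myh7, the RefSeq start sites used differ from the GENCODE starts in the spans given above. They are 54966607 against 54966927 for Myh6, 36119844 against 36120099 for Ankrd1, 54968787 against 54968678 for Mhrt and 123894775 against 123894751 for Acta1. For Myh7b they are 155611243 against 155611212, and for Tnni1 135799421 and 135799511 against 135779434. The other window of Myh7 has 54994549 against 54994626. The distances listed count from the RefSeq start. The stretches listed for Myh6 and Ankrd1 lie before the RefSeq start but inside those spans.

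Myh6, 206 bases before the start site, chr14:54966796-54966825, minus strand: ctttggggaggaGGAATGtgcccaaggact

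Myh7, 201 bases before, chr14:54994810-54994839, minus strand: ctagtgagccgtGGAATGttagagatattt

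Mhrt, 220 bases before, chr14:54968555-54968584, plus strand: ctcagggaacctGGAATGccactcaggcca

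Ankrd1, 210 bases before, chr19:36120037-36120066, minus strand: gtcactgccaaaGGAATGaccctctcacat

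Ankrd1, 123 bases before, chr19:36119950-36119979, minus strand: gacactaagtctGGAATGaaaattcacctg

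Acta1, MCAT, 46 bases before, chr8:123894804-123894833, minus strand: gaagggcagcaaCATTCCttcggggcggtg

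Acta1, CArG box, 73 bases before, chr8:123894829-123894858, minus strand: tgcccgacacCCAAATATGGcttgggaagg

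Libraries held between 3492 and 36308 barcodes and between 20025456 and 348080773 UMIs. Taz-KO mice 4685 and 5301 stood apart, with 3492 and 5571 barcodes against 21190 or more in the other 6, so results are also given without both. Of all barcodes, 30099 nuclei were cardiomyocyte-like, 16564 of WT and 13535 of Taz-KO mice, in 7 clusters with raised Ryr2, Ttn and 8 further markers. These 10 markers summed to between 40821 and 67869 CPM per mouse there, and to between 10426 and 21836 CPM in the share of 0.1 of the barcodes of each library with the fewest UMIs. These lowest-UMI barcodes are used as a second population. They are mostly shallow barcodes that also passed the filters for nuclei: all of them in 6 libraries, 332 of 349 in mouse 4685 and 0 of 557 in mouse 5301, where none held more than 616 UMIs. In those 6 libraries between 66 and 163 of them were also among the cardiomyocyte nuclei. RNA outside nuclei was not measured apart from them. Taz-KO mice 4685 and 5301 gave 236 and 989 cardiomyocyte nuclei, the other mice 3746 or more. Clusters led by atrial markers held 35.6% and 42.0% of the cardiomyocyte nuclei of those 2 mice and between 11.01% and 19.4% in the others. Most of those in mice 4685 and 5301, 78 and 401 nuclei, were in cluster 12. That cluster was shallow (0.760 of the library median) and scored high for atrial (1.49) and for ventricular markers (1.11), so its nuclei cannot be taken as atrial. Between 0.0573% and 1.04% of the barcodes of the smaller library were shared by pairs of libraries.

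Taz was lower in every Taz-KO mouse. In cardiomyocytes, with mice in the order named in the opening, it had WT levels of 53.0, 49.3, 54.0 and 48.4 CPM and Taz-KO levels of 42.9, 37.8, 28.2 and 31.7 CPM. The log2 fold change was -0.67 (SE 0.17, adjusted p = 0.0244 by edgeR's quasi-likelihood test, with adjustment over 18494 genes). Without WT mouse 4686 the call was lost (adjusted p = 0.0560). Which part of the transcript is deleted was not given in the sources used here, so the remaining UMIs do not show how much working transcript was left.

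In cardiomyocytes Ankrd1 was the member that passed the test, higher in Taz-KO hearts. The fitted log2 fold change of Acta1 was larger (1.74) but did not pass it. Ankrd1, a stretch-responsive partner of titin that moves between sarcomere and nucleus, had WT levels of 229, 384, 487 and 234 CPM and Taz-KO levels of 1267, 1015, 796 and 987 CPM. All 4 Taz-KO mice lay above all 4 WT mice. Its log2 fold change was 1.51 (SE 0.27), a 2.85-fold higher level (adjusted p = 0.00353 by edgeR). All 8 members passed the filter on low counts, and 1 of the 8 was called at an adjusted p below 0.05, where 15% of all 18494 genes tested were called and 8.52% were called higher. At an adjusted p below 0.001 with an absolute log2 fold change over 0.58, 2.34% of all genes were called and 0 of the 8 members. Ankrd1 was called in each of the 19 alternatives run, with log2 fold changes between 1.27 and 1.72 and adjusted p between 2.56e-06 and 0.0349. Without Taz-KO mice 4685 and 5301 the log2 fold change was 1.30 (adjusted p = 0.0339), and 3 of the 8 members (Ankrd1, Acta1 and Myh7b) were called, where 9.91% of all 19558 genes were. With the profile of the lowest-UMI barcodes subtracted at a share of 0.4 of the UMIs it was 1.61 (adjusted p = 0.0176). Among summed markers of other cell types in these nuclei, those of B-lymphocytes (5 genes) also did not overlap, with 19.6 to 28.3 CPM in WT and 11.2 to 16.4 CPM in Taz-KO mice, nor did those of smooth muscle (4 genes), with 12.7 to 51.1 and 60.2 to 233 CPM, of which Acta2 is one. No marker of either list was at 0 in every mouse, and their part in the result was not tested.

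Xirp2, an actin-binding protein of the intercalated disc, had WT levels of 487, 542, 356 and 393 CPM and Taz-KO levels of 1567, 610, 586 and 1253 CPM. The groups did not overlap, but the high values were those of mice 4685 and 5301, while mice 4910 and 5300 lay just above the highest WT mouse. Groups did not overlap for 22.3% of all genes tested, higher in Taz-KO mice for 15.2%. The log2 fold change of Xirp2 was 1.08 (SE 0.34, adjusted p = 0.0587 by edgeR). Without those 2 libraries it was 0.26 (adjusted p = 0.588), so the size of the difference rested on them. It was called without Taz-KO mouse 4910 (adjusted p = 0.0435), without Taz-KO mouse 5300 (0.0219) and by DESeq2 (0.0189). On simulated counts DESeq2 called more unchanged genes than edgeR did.

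Acta1, the actin of skeletal muscle and of the fetal heart, had WT levels of 20.6, 30.4, 62.3 and 7.62 CPM and Taz-KO levels of 82.9, 139, 189 and 33.0 CPM. The Taz-KO mean was 111 ± 67.6 CPM against 30.3 ± 23.3 CPM in WT (SD, n = 4), and mouse 5301 fell within the WT range. The fitted log2 fold change was the largest of the members, 1.74, with the largest error (SE 0.61, adjusted p = 0.0924 by edgeR). It passed the threshold in 6 of 18 alternatives. These were DESeq2 (adjusted p = 0.00869), nuclei with at most 5% mitochondrial UMIs (0.0404), the fit without WT mouse 5355 (0.0402), the fit without Taz-KO mouse 5301 (0.0395), and both fits without Taz-KO mice 4685 and 5301 (0.0340 with all clusters). The fit of nuclei with at most 5% mitochondrial UMIs kept WT mouse 4909 as a replicate, with 9 nuclei. With the profile of the lowest-UMI barcodes subtracted at a share of 0.2 the log2 fold change was 1.35 (adjusted p = 0.456).

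**Figure D1:**
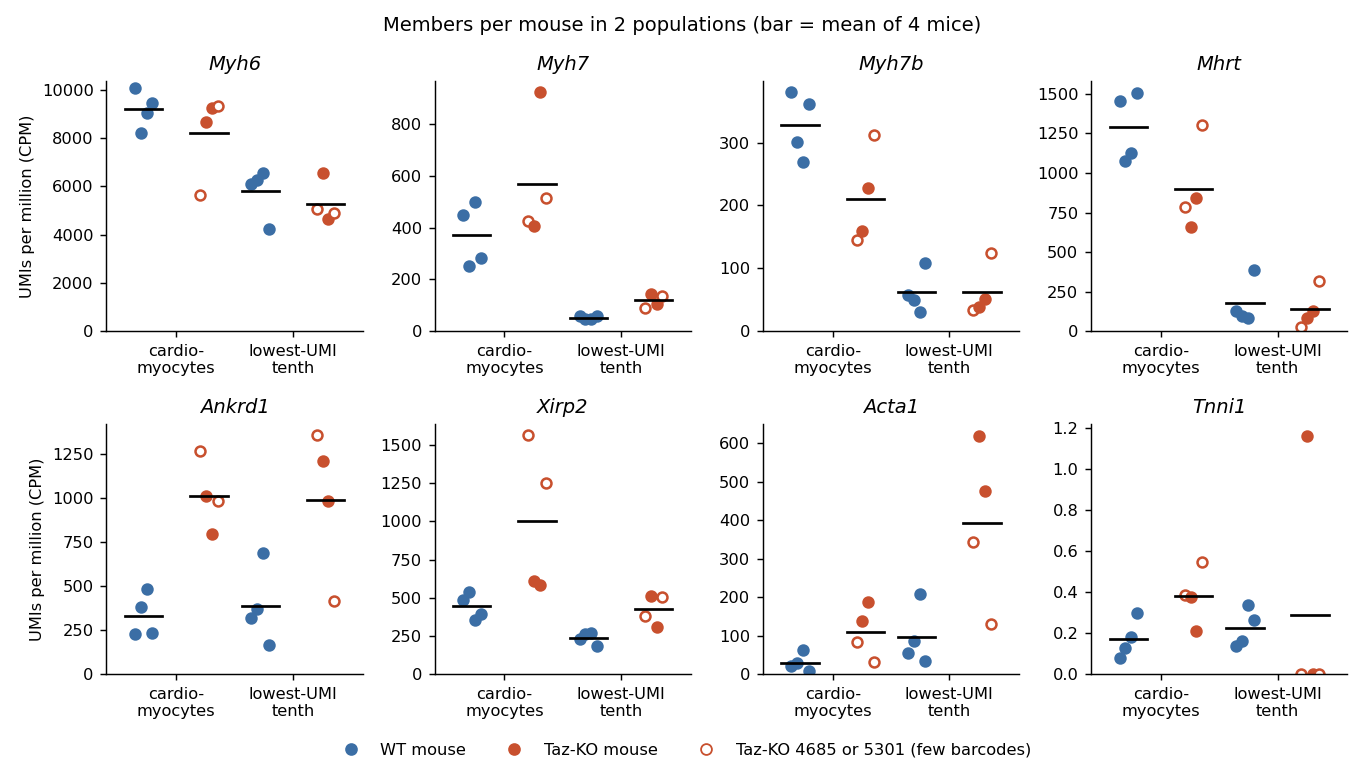
Level of each member (CPM, linear axis from 0) in cardiomyocytes and in the lowest-UMI barcodes, 1 point per mouse, with bars at the means of 4 WT (blue) and 4 Taz-KO (red) mice and open points for mice 4685 and 5301. Ankrd1 in cardiomyocytes (796 to 1267 against 229 to 487 CPM) and Myh7 in the lowest-UMI barcodes (89.1 to 143 against 45.9 to 60.4 CPM) do not overlap between genotypes.

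The myosin genes did not pass the test in cardiomyocytes. Myh6 had WT levels of 10070, 8207, 9037 and 9449 CPM and Taz-KO levels of 5629, 8658, 9258 and 9331 CPM. All Taz-KO mice other than 4685 lay within the WT range, and the log2 fold change was -0.28 with a 95% interval from -0.79 to 0.24 (adjusted p = 0.562). Myh7 had WT levels of 447, 253, 500 and 282 CPM and Taz-KO levels of 426, 407, 922 and 512 CPM. Mouse 5300 was the highest, the ranges overlapped, and the log2 fold change was 0.47 with an interval from -0.09 to 1.03 (adjusted p = 0.325). Neither gene was called in any of the 19 alternatives.

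Myh7b and Mhrt had lower means in Taz-KO mice. Myh7b had WT levels of 380, 301, 269 and 361 CPM and Taz-KO levels of 144, 160, 228 and 312 CPM. Mhrt had WT levels of 1456, 1073, 1128 and 1507 CPM and Taz-KO levels of 784, 658, 842 and 1302 CPM. For both genes Taz-KO mouse 5301 lay within the WT range and the other 3 lay below it. The log2 fold changes were -0.74 for Myh7b (SE 0.30, adjusted p = 0.131 by edgeR) and -0.63 for Mhrt (SE 0.30, adjusted p = 0.195). Without mouse 5301 they were -1.07 (adjusted p = 0.00952) and -0.95 (adjusted p = 0.0147). Without mice 4685 and 5301 they were -0.97 (adjusted p = 0.0451) and -0.99 (adjusted p = 0.0578).

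Tnni1 was close to absent. All cardiomyocyte nuclei held 33 of its UMIs in WT and 53 in Taz-KO mice, between 0.0783 and 0.300 CPM per WT mouse and between 0.213 and 0.546 CPM per Taz-KO mouse. The log2 fold change of 0.91 (SE 0.53) did not pass the test (adjusted p = 0.303 by edgeR). At these counts a difference was not resolved.

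**Figure D2:**
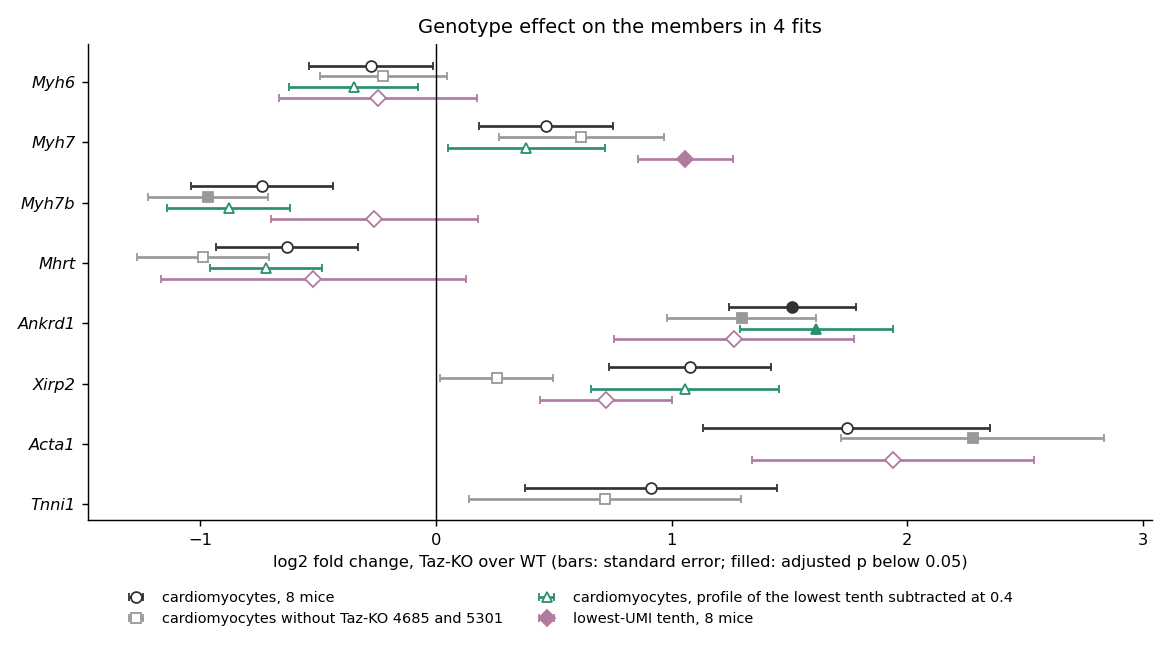
Log2 fold change of each member, Taz-KO over WT, with its standard error, in cardiomyocytes, in cardiomyocytes without mice 4685 and 5301, in cardiomyocytes after subtraction of the lowest-UMI profile at 0.4, and in the lowest-UMI barcodes; filled symbols have an adjusted p below 0.05. Ankrd1 is filled in all 3 fits of cardiomyocytes and Myh7 only in the lowest-UMI barcodes; Acta1 and Myh7b are also filled without those mice, and Acta1 after subtraction and Tnni1 after subtraction and in the lowest-UMI barcodes were not tested.

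In the lowest-UMI barcodes Myh7 was the member that passed the test, higher in Taz-KO mice. Larger fitted log2 fold changes, of Acta1 (1.94) and Ankrd1 (1.27), did not pass it. Myh7 had WT levels of 57.3, 45.9, 47.0 and 60.4 CPM and Taz-KO levels of 89.1, 143, 106 and 138 CPM, without overlap. The log2 fold change was 1.06 (SE 0.20), a 2.08-fold higher level (adjusted p = 0.0364 by edgeR over 14761 genes). Of the 7 members tested there this was the only one called, where 0.894% of all genes were called and 0.644% were called higher. It was also called without the barcodes shared with the cardiomyocyte nuclei (log2 fold change 1.10, adjusted p = 0.0347) and without mice 4685 and 5301 (adjusted p = 0.0474), and was no longer called without any 1 of WT mice 4686, 4909 and 5355 or Taz-KO mice 4910 and 5300 (adjusted p between 0.0966 and 0.177). Tnni1 was not tested there, with 0 UMIs in 3 Taz-KO mice. Summed markers of other cell types also did not overlap between genotypes in these barcodes. The 5 mesothelial markers ran from 68.2 to 131 CPM in WT and from 158 to 464 CPM in Taz-KO mice, the 6 pericyte markers from 993 to 1252 CPM and from 655 to 955 CPM, and the 4 smooth muscle markers from 51.7 to 177 CPM and from 184 to 285 CPM. Without Acta2 the other 3 smooth muscle markers overlapped (28.4 to 78.1 CPM and 36.9 to 117 CPM). No marker of these lists was at 0 in every mouse, and their part in the result was not tested.

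The other members there did not pass the test. Acta1 had 55.0, 87.3, 208 and 33.9 CPM in WT and 344, 619, 475 and 131 CPM in Taz-KO mice (log2 fold change 1.94, adjusted p = 0.255). Ankrd1 had 320, 372, 689 and 165 CPM in WT and 1362, 1211, 984 and 417 CPM in Taz-KO mice (log2 fold change 1.27, adjusted p = 0.4495). Mouse 5301, whose lowest-UMI barcodes had a median of 538 UMIs, was the lowest Taz-KO mouse for both and lay within the WT range. Xirp2 ran from 185 to 272 CPM in WT and from 311 to 511 CPM in Taz-KO mice without overlap, with an adjusted p of 0.417. Groups did not overlap for 5.86% of all genes tested there.

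The genotype effect did not pass a test of difference between cardiomyocytes and the lowest-UMI barcodes for any member. The interaction was tested with edgeR on both sums of each mouse, with the mouse as a block, in 7 members of 16827 genes. Of all genes 1.66% were called, and 0 of the 7 members, whose unadjusted p were below 0.05 for 1, Myh7b (0.0310). For Myh7 the effect in cardiomyocytes minus that in the lowest-UMI barcodes was -0.58 with a 95% interval from -1.20 to 0.04 (adjusted p = 0.578). For Ankrd1 it was 0.23, from -0.44 to 0.90 (adjusted p = 0.929).

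The share of beta myosin was higher on average in Taz-KO mice in both populations, and the groups separated only in the lowest-UMI barcodes. In cardiomyocytes there were 4.44, 3.08, 5.53 and 2.99 Myh7 UMIs per 100 Myh6 UMIs in the WT mice and 7.56, 4.70, 9.96 and 5.49 in the Taz-KO mice. WT mouse 5355 lay above 2 of the Taz-KO mice. The Taz-KO ratio was 1.71-fold the WT ratio (geometric means), with p = 0.0857 by a two-sided exact permutation test over the mice. In the lowest-UMI barcodes there were 0.940, 0.730, 0.716 and 1.43 per 100 in the WT mice and 1.76, 2.18, 2.28 and 2.81 in the Taz-KO mice. There the ratio was 2.43-fold higher (exact permutation p = 0.0286, the smallest that 4 against 4 mice allow, and 0.0476 adjusted over the 5 ratios tested).

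Acta1 relative to Actc1, its cardiac paralog, separated the genotypes in both populations. In cardiomyocytes there were 2.17, 2.55, 5.40 and 2.55 Acta1 UMIs per 100 Actc1 UMIs in the WT mice and 11.1, 18.9, 14.8 and 7.87 in the Taz-KO mice. The ratio was 4.23-fold higher (exact permutation p = 0.0286, adjusted 0.0476). In the lowest-UMI barcodes it was 5.30-fold higher, with 2.22 to 6.01 per 100 in WT and 12.4 to 23.2 per 100 in Taz-KO mice, at the same p. Actc1 itself did not pass the test in cardiomyocytes (log2 fold change -0.32, SE 0.37, adjusted p = 0.645). The 2 actins are near-identical in coding sequence, so a share of their reads could be assigned to the other. After subtraction of the lowest-UMI profile at 0.2 the exact permutation p of the ratio in cardiomyocytes was 0.0857. At a share of 0.4 no Acta1 UMIs were left there, and the ratio was not computed.

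**Figure D3:**
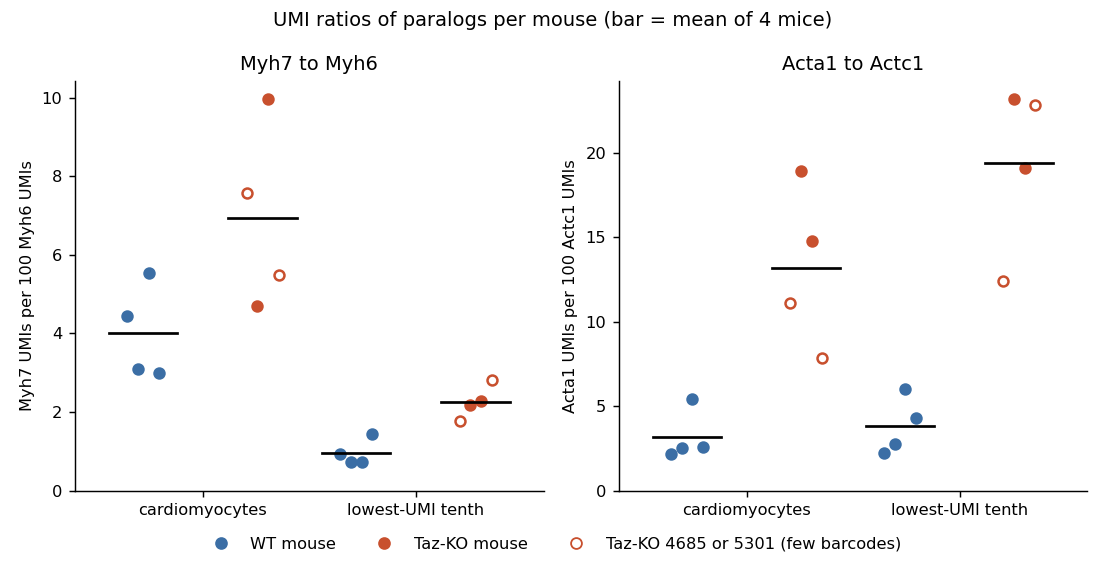
UMIs of Myh7 per 100 UMIs of Myh6 and of Acta1 per 100 of Actc1, 1 point per mouse, with means of 4 mice as bars, in cardiomyocytes and in the lowest-UMI barcodes. Ratios of Acta1 to Actc1 do not overlap between WT and Taz-KO mice in either population, and ratios of Myh7 to Myh6 overlap in cardiomyocytes (2.99 to 5.53 against 4.70 to 9.96).

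The troponin I ratio rested on few UMIs. Between 4 and 13 Tnni1 UMIs per WT mouse and between 2 and 38 per Taz-KO mouse stood against 1876 to 86116 UMIs of Tnni3, the adult cardiac troponin I. There were 0.00856, 0.0105, 0.0150 and 0.0764 Tnni1 UMIs per 100 Tnni3 UMIs in WT and 0.0683, 0.0647, 0.0280 and 0.267 in Taz-KO mice, with an exact permutation p of 0.114. Tnni3 ran from 393 to 1250 CPM in WT and from 205 to 763 CPM in Taz-KO mice (log2 fold change -0.97, adjusted p = 0.100).

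Levels outside cardiomyocytes showed which members were set apart in these nuclei. Mhrt, Myh7, Myh7b, Myh6 and Xirp2 were higher in cardiomyocytes than in the lowest-UMI barcodes in 8 of 8 mice, with median ratios of 9.56, 5.14, 4.39, 1.51 and 2.07. Ankrd1 was higher in cardiomyocytes in 3 of 8 mice (median ratio 0.884) and Acta1 in 0 of 8 (median ratio 0.276). Against endothelial-like nuclei Ankrd1 was higher in cardiomyocytes in 8 of 8 mice (ratios 1.09 to 6.30) and Acta1 in 1 of 8 (0.335 to 1.08). Whether Acta1 UMIs of cardiomyocyte nuclei came from other cells was not tested.

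**Figure D4:**
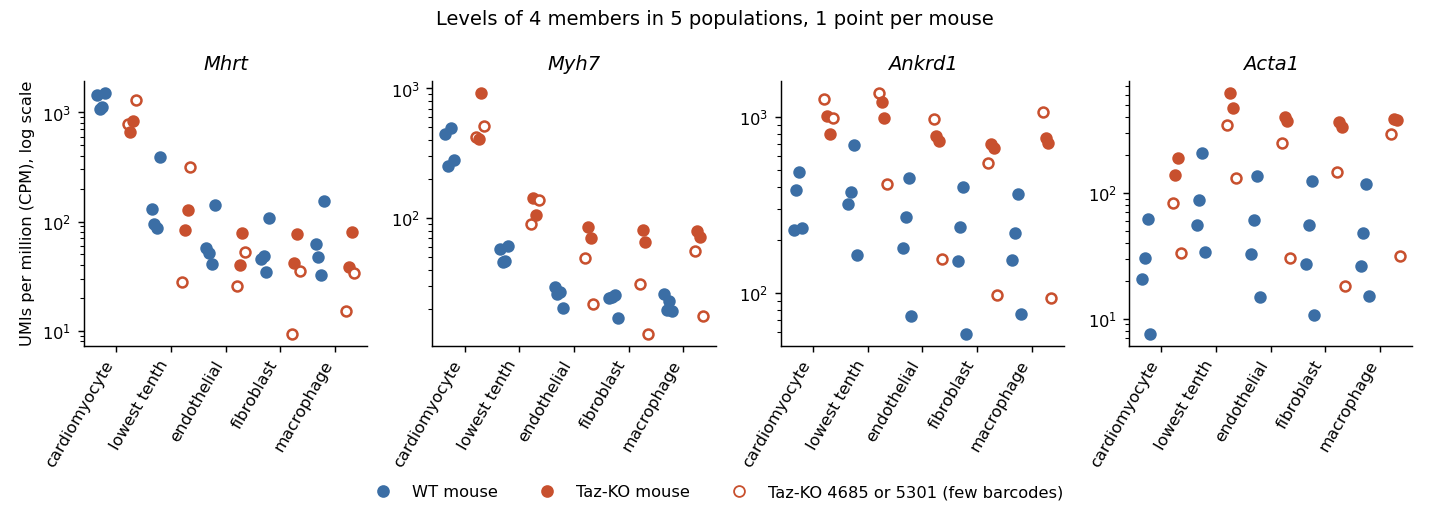
Levels of Mhrt, Myh7, Ankrd1 and Acta1 (CPM, log axis) in 5 populations, 1 point per mouse. Mhrt and Myh7 are highest in cardiomyocytes in every mouse, Ankrd1 is above the lowest-UMI barcodes in 3 of 8 mice, and Acta1 is lower in cardiomyocytes than in the lowest-UMI barcodes in all 8 mice.

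The share of cardiomyocyte nuclei with at least 1 UMI was compared with each nucleus thinned to 1000 UMIs, which left out 81 shallower nuclei, all of Taz-KO mice. Ankrd1 was found in 18.2%, 28.3%, 35.3% and 16.3% of nuclei in the WT mice and in 69.98%, 58.7%, 50.5% and 45.3% in the Taz-KO mice (unadjusted exact permutation p = 0.0286, with 8 members tested). Its share in endothelial-like nuclei was 17.7%, 24.8%, 38.0% and 8.06% in WT and 66.3%, 55.2%, 52.2% and 13.3% in Taz-KO mice, close to or above that of cardiomyocytes in all mice but 5356 and 5301. Whether endothelial cells made Ankrd1 themselves was not tested. Median depths before thinning ran from 6474 to 20280.5 UMIs in cardiomyocyte and from 1990 to 5721 UMIs in endothelial-like nuclei.

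Shares of Mhrt and Myh7b were above those in endothelial-like nuclei. Mhrt was found in 62.2% to 73.2% of nuclei in WT and in 43.1% to 61.6% in Taz-KO mice, and in 2.83% to 14.7% of endothelial-like nuclei. Myh7b was found in 21.5% to 28.7% in WT and in 10.1% to 21.4% in Taz-KO mice, and in 1.56% to 4.82% of endothelial-like nuclei. Both did not overlap between genotypes (unadjusted exact permutation p = 0.0286 each). The gaps were narrow, 62.2% against 61.6% for Mhrt and 21.45% against 21.35% for Myh7b. How many of all genes separate on this measure was not computed. At 2000 UMIs they overlapped, with an exact permutation p of 0.0857 for Mhrt and 0.0571 for Myh7b. Myh7 was found in 21.1% to 36.4% of WT and 27.3% to 55.4% of Taz-KO nuclei (p = 0.343 by the same exact test). Unthinned, Myh7 was found in 75.8% to 90.7% of WT and 64.1% to 92.4% of Taz-KO nuclei, and Ankrd1 in 52.5% to 90.9% and 73.3% to 99.6%.

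Members differed in how they went with the mitochondrial share of a nucleus. What that share reflects was not tested. Nuclei with up to 5% mitochondrial UMIs were also deeper than all cardiomyocyte nuclei in every mouse (medians of 22263 against 12283.5 UMIs in WT mouse 4686). In the 5 mice with at least 10 nuclei in both classes, Acta1 was higher in nuclei with over 15% mitochondrial UMIs than in those with up to 5% in 5 of 5 (median ratio 3.83). Ankrd1 was higher in 5 of 5 (1.403), while Myh7b and Xirp2 were lower in 5 of 5 (0.744 and 0.745). In nuclei of up to 5%, Acta1 was at 15.8 ± 10.46 CPM in WT (SD, n = 3) and 71.2 ± 40.3 CPM in Taz-KO mice (SD, n = 4). Ankrd1 was there at 271 ± 82.4 CPM and 988 ± 208 CPM. These WT means leave out mouse 4909, which had 9 nuclei in this class, while the fit of this class kept that mouse. The mitochondrial share of all cardiomyocyte UMIs ran from 4.81% to 16.4% in WT and from 0.539% to 11.98% in Taz-KO mice, with mouse 5301 the lowest.

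Members also varied among the cardiomyocyte clusters, which were made without the members and without the genes of the lists. The markers that named the clusters do include genes of the lists, such as Ttn, Ryr2 and Nppa. In cluster 11, which held 1206 WT and 3365 Taz-KO nuclei, Ankrd1 was at 814 ± 219 CPM in WT mice, against 298 ± 130 CPM in cluster 4, the largest (SD, n = 4). In Taz-KO mice it was at 1132 ± 186 CPM and 1054 ± 257 CPM. Xirp2 showed the same order, with 741 ± 163 and 416 ± 89.6 CPM in WT and 1374 ± 770 and 687 ± 205 CPM in Taz-KO mice. In cluster 30, led by atrial markers, Myh7b was at 44.7 ± 18.7 CPM in WT against 326 ± 59.1 CPM in cluster 4, while in cluster 12, the larger of the 2 led by atrial markers, it was at 258 ± 55.6 CPM. Without the clusters led by atrial markers Ankrd1 was called with a log2 fold change of 1.57 (adjusted p = 0.00353).

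Of the 22 genes of the wider stress list, 4 rose and 2 fell (edgeR, adjusted p below 0.05, where 8.52% of all genes rose and 6.44% fell), with a median log2 fold change of -0.09 against -0.01 over all genes tested. This list and those that follow were chosen with earlier results of these data known. Their counts beside the shares of all genes are therefore a description and no test of the lists. Gdf15, a hormone secreted by stressed cells, was at 0.347 to 1.26 CPM in WT and 15.9 to 54.2 CPM in Taz-KO mice (log2 fold change 5.54). Enah, an actin-filament elongation factor of the intercalated disc, rose from 303 to 332 CPM in WT to 926 to 1670 CPM in Taz-KO mice (1.95). Flnc, the filamin of muscle, rose by 1.46 and Fhl1, a LIM protein of the titin spring, by 0.61. Csrp3, the muscle LIM protein, fell by 0.73 and Lmcd1, a LIM cofactor, fell by 1.28 on the log2 scale. Without mice 4685 and 5301, 3 genes rose and 1 fell, where 6.37% of all genes rose and 3.54% fell.

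The natriuretic peptides, the standard markers of the fetal program, did not pass the test. Nppa had 71.4, 231, 292 and 54.4 CPM in WT and 207, 219, 177 and 35.2 CPM in Taz-KO mice (log2 fold change -0.15, SE 0.61, adjusted p = 0.919). Nppb had 64.4, 78.6, 90.8 and 54.2 CPM in WT and 83.9, 38.5, 90.5 and 37.4 CPM in Taz-KO mice (-0.37, SE 0.24, adjusted p = 0.366). Groups overlapped for both. Nppa is also an atrial gene, and the summed level of 6 atrial markers ran from 99.1 to 417 CPM in WT and from 65.0 to 377 CPM in Taz-KO mice.

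Of the fetal list 4 of 16 genes tested rose and 1 fell, with a median of 0.36, where 8.52% of all genes rose and 6.44% fell. Without mice 4685 and 5301, 2 rose and 0 fell (6.37% and 3.54% of all genes). Acta2, the smooth muscle actin that the embryonic heart also uses, had 25.8, 23.4, 31.1 and 7.25 CPM in WT and 47.7, 64.2, 204 and 226 CPM in Taz-KO mice (log2 fold change 2.57, adjusted p = 0.0222). The other 3 smooth muscle markers, Myh11, Tagln and Cnn1, none of them at 0, summed to 5.47 to 19.99 CPM in WT and 7.10 to 24.9 CPM in Taz-KO mice, and the groups overlapped. Hk1, Pfkp and Slc2a1, of glucose uptake and glycolysis, rose by 0.96, 0.94 and 0.82. Tnnt1, the slow skeletal troponin T, fell by 1.02 on the log2 scale.

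In the adult contractile list all 18 genes had a negative log2 fold change, with a median of -0.47, as did 50.8% of all genes tested. These fold changes are TMM-scaled, and on the CPM scale 3 of the 18, Tnnc1, Myom1 and Casq2 (named for this reason), had a slightly higher mean in Taz-KO mice. Among the 18, Ttn, Ryr2, Tnnt2, Actn2 and Mybpc3 are also markers by which the cardiomyocyte clusters were named, so they took part in choosing these nuclei. By the test 3 of 18 fell and 0 rose, where 6.44% of all genes fell and 8.52% rose. Myom2, a protein of the M-band, fell by 1.25, Tcap, the cap of titin, fell by 1.45, and Myl2, the ventricular light chain, fell by 1.03 on the log2 scale. Myom2 was higher in cardiomyocytes than in the lowest-UMI barcodes in 8 of 8 mice (median ratio 1.72), while Tcap was higher in 0 of 8 (0.577) and Myl2 in 1 of 8 (0.438), as Acta1 was in 0 of 8. Tcap and Myl2 overlapped between genotypes and lost the call when any 1 of 7 mice was left out. Without mice 4685 and 5301, 1 of the 18 fell, Myom2 (adjusted p = 0.0479), where 3.54% of all genes fell.

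Of 37 regulators of the program, 8 fell and 0 rose, with a median of -0.30, where 6.44% of all genes fell and 8.52% rose. Thrb, the beta receptor of thyroid hormone, which favours alpha over beta myosin, was at 815 to 994 CPM in WT and 441 to 614 CPM in Taz-KO mice (log2 fold change -0.84, adjusted p = 0.0306). Its partner Rxrg (-0.70), Tead3 (-0.76), the homeodomain protein Hopx (-0.76), the deacetylase Hdac5 (-0.74) and the T-box factor Tbx5 (-0.85) fell as well. Without mice 4685 and 5301, 3 of 37 fell (3.54% of all genes), and the log2 fold change of Thrb was -0.86 (adjusted p = 0.0699).

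Calls of several listed genes did not hold in every fit with a mouse left out. With each of the 8 mice left out in turn the call was lost in 5 fits for Slc2a1 and Thrb, in 4 for Fhl1 and Rxrg, and in 3 for Acta2 and Tnnt1, and in 0 for Gdf15, Enah, Flnc, Csrp3, Lmcd1, Hk1, Pfkp, Myom2, Tbx5, Tead3, Hopx and Hdac5. Without both mice 4685 and 5301, Csrp3 (adjusted p = 0.0711), Hk1 (0.0527), Tead3 (0.0754), Hopx (0.0596) and Hdac5 (0.0678) lost the call by edgeR, as did Fhl1, Tnnt1, Slc2a1, Myl2, Tcap, Thrb and Rxrg (0.0512 to 0.210). Log2 fold changes with all mice and without these stayed close for Csrp3 (-0.73, -0.74), Tead3 (-0.76, -0.74), Thrb (-0.84, -0.86), Rxrg (-0.70, -0.74) and Tnnt1 (-1.02, -1.10). They shrank for Hk1 (0.96, 0.64), Slc2a1 (0.82, 0.50), Fhl1 (0.61, 0.47), Myl2 (-1.03, -0.87) and Tcap (-1.45, -0.96). Gdf15, Enah, Flnc, Lmcd1, Acta2, Pfkp, Myom2 and Tbx5 were still called.

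The levels of listed genes in cardiomyocytes were also set against the lowest-UMI barcodes of the same mouse. Enah, Hk1, Thrb, Rxrg, Tead3 and Tbx5 were higher in cardiomyocytes in 8 of 8 mice, Flnc in 7, and Pfkp and Hopx in 6. Gdf15, Fhl1, Nppa, Actc1 and Tnni3 were higher in cardiomyocytes in 0 of 8 mice, and Acta2, Csrp3 and Nppb in 2. For the latter genes the part of RNA from outside cardiomyocytes in their levels was not tested.

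**Figure D5:**
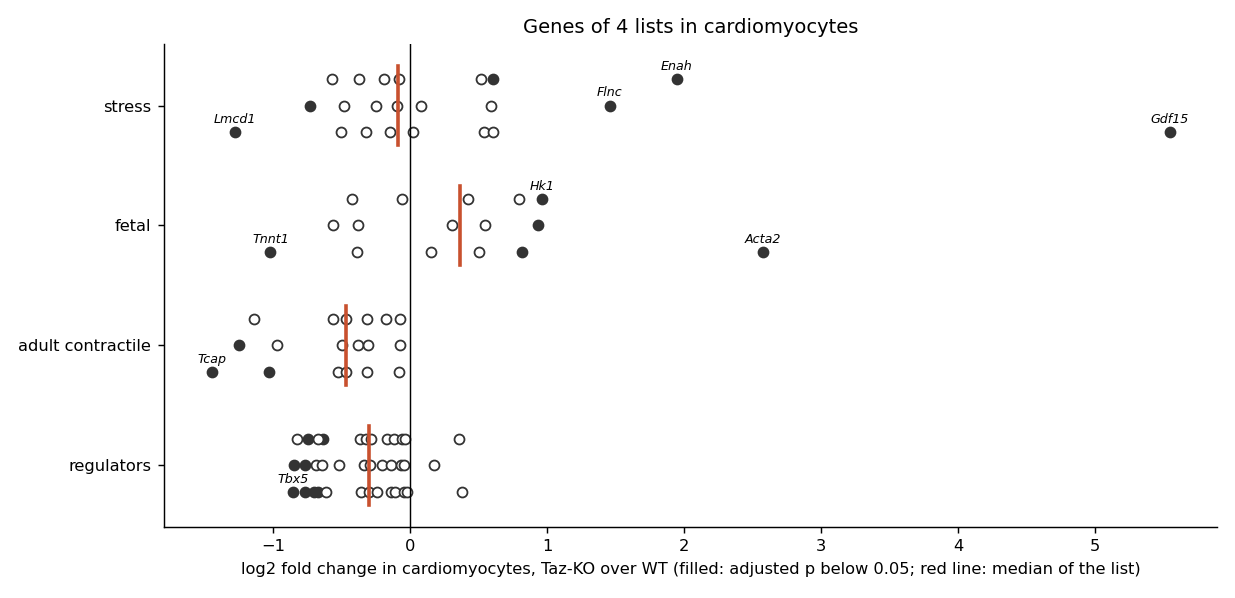
Log2 fold changes in cardiomyocytes, Taz-KO over WT, of the genes of 4 lists, 1 point per gene, filled where the adjusted p by edgeR was below 0.05, with the median of each list as a red line. Gdf15 stands at 5.54 and Acta2 at 2.57, while all 18 adult contractile genes lie below 0 on this TMM scale, 3 of them filled (on the CPM scale 3 of the 18 had a higher mean in Taz-KO mice).

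The genes most like 3 of the members were read from levels in cardiomyocytes after the mean of each genotype was taken away, over 8 mice and 4932 genes, as a description. Myh6 went most closely with Map7, Nedd9 and Trim7 (Pearson's r of 0.979, 0.978 and 0.963), Myh7 with Zfp866, Drg1 and Gm48321 (0.982, 0.976 and 0.974), and Ankrd1 with Ezh1, Ggps1 and 3830406C13Rik (0.893, 0.889 and 0.883). Of the 5 other members compared, which left out Acta1 and Tnni1, Myh6 had its highest r with Myh7b (0.718). Ankrd1 had r of 0.249 with Xirp2 and negative r with the others, the lowest with Myh7b (-0.607). The points share the 8 libraries, whose depth and mitochondrial share differ.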

How the data were processed

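Single nuclei of 8 whole hearts, 1 library per mouse, were sequenced with the 10x Genomics 3' chemistry. The deposited matrices hold UMI counts as made by Cell Ranger 6.0.1 on mm10 (submitters' processing notes), introns included, before any removal of ambient RNA or doublets. Here mitochondrial genes were removed, a minimum of 800 UMIs and 250 genes was set for each barcode, doublets were scored against artificial ones, and nuclei were clustered with Leiden (python-igraph 0.11.9) on 15 principal components corrected for the mouse, leaving out the members and listed genes. Clusters were named from fixed markers, some of them listed genes, by a score whose limits were set with the clusters in view. This left 151264 nuclei, with 16231 doublets removed, of 167495 barcodes past the filters. In total, 31999 nuclei stayed unnamed. In every library but those of mice 4685 and 5301 the barcodes outnumber the nuclei that the paper states were used per heart. Some of the barcodes may therefore be empty droplets, also among those called nuclei here, and how many was not tested.

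Counts were summed per mouse and population and tested with edgeR 4.0.16 (TMM, filterByExpr, quasi-likelihood test, Benjamini-Hochberg adjustment over all genes tested); DESeq2 1.42.0 was the other tool. The 95% intervals are normal approximations from the SE, which was derived from the fold change and the F statistic. They are narrower than the edgeR test implies. For Mhrt in cardiomyocytes such an interval, -1.22 to -0.045, excluded no change at an unadjusted p of 0.0581 by edgeR. CPM are not TMM-scaled. Ratios and shares were compared by two-sided exact permutation tests; thinned shares are expected values, computed without drawing. The fits were tested on simulated counts. In cardiomyocytes edgeR recovered 14.4% of 2-fold and 88.7% of 4-fold changes. DESeq2 recovered 41.5% and 91.8% there, but called 29 and 47 unchanged genes, against 2 and 14 by edgeR. In the lowest-UMI barcodes edgeR recovered 0.513% and 90.05%, and the interaction test recovered 59.5% of 4-fold changes. Most 2-fold changes were thus missed, so a gene that was not called is not shown to be unchanged. Depth per mouse is given with the samples. Genes are named if they are members or Taz, if they are the up to 6 largest called changes of a list, or if they are Nppa, Nppb, Actc1 or Tnni3; for 3 members the 3 most similar genes are also given. Members and lists were chosen with earlier results of these data known. Gene positions are from GENCODE vM21 and RefSeq on GRCm38, the build of the files. The alternatives were other normalizations, filters, nuclei, ambient subtraction and mice left out; 3 were added after seeing the data (the fits of the lowest-UMI barcodes and of the interaction without mice 4685 and 5301, the interaction with each mouse left out, and cardiomyocytes without those mice and without atrial-led clusters).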

Additional observations from a re-analysis of the deposited data

Results flagged for a closer look

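Single mice stood out from the other 3 of their genotype in 7 of 44 groups tested, by a gap test (Dixon) that chance passes in about 1 of 20 groups. In the lowest-UMI barcodes, WT mouse 5356 held 389 CPM of Mhrt against 86.5 to 130 CPM in the other WT mice. For Acta1 relative to Actc1 in cardiomyocytes, WT mouse 5355 stood at 5.40 UMIs per 100, the others between 2.17 and 2.55. The other 5 concern Tnni1, with 13 or fewer UMIs in each of these mice. In the lowest-UMI barcodes Taz-KO mouse 4910 held 1.16 CPM of Tnni1 and 0.0539 Tnni1 UMIs per 100 of Tnni3, with 0 in the other Taz-KO mice. WT mouse 5356 stood at 0.0764 per 100 in cardiomyocytes and 0.0384 per 100 in the lowest-UMI barcodes. Taz-KO mouse 5301 stood at 0.267 per 100 in cardiomyocytes.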

How the results depend on the processing

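No paired analysis was made, because the labels give no pairing of WT with Taz-KO mice. Some numbers are adjacent across genotypes (4685 and 4686, 4909 and 4910), others within a genotype (5300 and 5301, 5355 and 5356). Whether such mice were littermates or were prepared together was not given in the sources used here. Cardiomyocyte-like nuclei gated by Ryr2 and Ttn alone numbered 2652 in Taz-KO mouse 4685, of which 8.52% were in the cardiomyocyte clusters, so that gate did not separate there.

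In cardiomyocytes 2766 genes were called, against 1539 with that gate and 1436 after subtraction at 0.4. At the stricter limits (adjusted p below 0.001 and absolute log2 fold change over 0.58) 432 genes were called, 1482 by DESeq2, 652 with no filter, 192 without mice 4685 and 5301, 216 without these and atrial-led clusters, 139 with the gate, 88 and 76 after subtraction at 0.2 and 0.4, and 194 to 320 with 1 mouse left out. Taz was not called without atrial-led clusters (adjusted p by edgeR 0.0511), at up to 5% mitochondrial UMIs (0.0901), or after subtraction at 0.2 and 0.4 (0.0768 and 0.122). Members called in cardiomyocytes numbered 1, but 3 by DESeq2, 3 without mice 4685 and 5301 (with or without atrial-led clusters), 2 at up to 5% mitochondrial UMIs, and 1 to 4 with 1 mouse left out. Genes called with 1 mouse left out numbered 1881 to 2645. For DESeq2 and for up to 5% mitochondrial UMIs the number of all genes called at this threshold is not given here. Those counts of members therefore cannot be set against all genes.

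In the lowest-UMI barcodes 132 genes were called, 65 to 210 with 1 mouse left out, and 0 to 1 member. For the interaction 279 genes were called, 423 without mice 4685 and 5301, and 128 to 371 with 1 mouse left out. There the differences of Ankrd1 and Xirp2 turned to -0.18 and -0.33 without both mice. With 1 mouse left out they ran from -0.11 to 0.48 and from -0.065 to 0.50, Myh6 from -0.21 to 0.17 and Mhrt from -0.60 to 0.031. Among the lowest-UMI barcodes Myh7b ran from -0.64 to 0.022 and Mhrt from -1.17 to 0.13. None of these passed the threshold, and the cause of the changes was not tested.

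With 3 against 4 mice the exact test cannot go below 0.0571, and with 2 against 4 not below 0.133, so ratios lost the call there. As log2 differences, Acta1 to Actc1 ran from 1.88 to 2.37 in cardiomyocytes (1.70 after subtraction at 0.2, 2.50 without mice 4685 and 5301) and from 2.18 to 2.66 in the lowest-UMI barcodes (2.57). Myh7 to Myh6 ran from 1.16 to 1.496 there (1.28). Differences of shares, in percentage points, turned to -4.24 for Myh7 and -0.0021 for Xirp2 without thinning. The exact permutation p of the shares were not adjusted over the members, so no share is counted as called. Unadjusted, they were below 0.05 at 1000 UMIs for Ankrd1, Myh7b and Mhrt. They were no longer so for Ankrd1 without thinning (difference 15.6), nor at 2000 UMIs for Myh7b (-14.2) and Mhrt (-13.7). Unthinned shares move with depth.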
